A study of Homo sapiens with 4 samples.

Results

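Of 581 cells of the shAPC day 3 library, 119 held at least 1 mRNA molecule of ATF3, and 46 of these held 3 or more. In the 46 cells the stress genes DDIT3, GADD45A and PPP1R15A, NF-kB targets and part of the interferon response were high. Summed levels of mitotic genes such as TOP2A were low there, though the level of mitotic genes in the median cell was not. The low sums were not found in the ATF3-positive cells of every other library. The 73 cells with 1 or 2 ATF3 molecules lay much closer to the cells with none. The members were chosen by their measured ATF3 count, so ATF3 itself is no result, and every other gene is described without a test, because all members come from 1 library.

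The cells are HCEC 1CT, a line started from human colonic epithelium and made immortal with TERT and CDK4, carrying either an APC shRNA (shAPC) or its scrambled control (shScr). They were selected with puromycin, which both groups received, and harvested 3 or 7 days after viral delivery of the shRNA. Droplet single-cell RNA sequencing gave 4 libraries, 1 for each shRNA and day, and the study's methods name a single shRNA sequence against APC. A barcode was kept as a cell with at least 2000 genes detected and under 5% of its unique molecular identifiers (UMIs, the counted molecules) from mitochondrial genes. In all, 3212 cells were kept, of which 241 were ATF3-positive, that is, held at least 1 ATF3 UMI. In shAPC day 3 the comparison cells were the 462 kept cells with 0 ATF3 UMIs.

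ATF3 is a transcription factor of the ATF/CREB family that is made quickly after many kinds of stress. In the integrated stress response, phosphorylation of eIF2α slows general translation while the factor ATF4 is still translated, and ATF4 switches on ATF3, DDIT3 (CHOP), TRIB3 and genes for amino acid supply. PPP1R15A (GADD34) brings a phosphatase to eIF2α and so ends the response. ATF3 is also induced by DNA damage, mitogen and cytokine signals, and virus sensing, in which NF-kB and interferon genes are expressed as well.

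APC, the target of the shRNA, had 5.56 CPM (counts per 1000000 UMIs, 95% interval 4.80 to 6.40) in the kept cells of shAPC day 3 and 16.2 CPM (14.9 to 17.5) in shScr day 3, and 6.67 and 19.7 CPM at day 7 in the same order. The kept cells held 27288693 to 38912986 UMIs per library, with medians of 51580 and 57250 UMIs per cell at day 3 and 28780.5 and 28223 at day 7 (shScr, then shAPC). Between any pair of libraries at most 1 barcode of kept cells was shared, and shAPC day 3 shared 0 with each of the others. Intervals in the text are exact Poisson or binomial 95% intervals and cover counting error only. They do not cover differences between cultures, which 1 library per group leaves unknown.

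ATF3-positive cells made up 20.5% of shAPC day 3 (119 of 581, 17.3% to 24.0%), against 4.44% in shScr day 3 (34 of 765), 4.99% in shScr day 7 (47 of 942) and 4.44% in shAPC day 7 (41 of 924). After each cell was thinned to 5000 UMIs, which left out 1 shallower shAPC day 3 cell, the shares were 6.38%, 0.523%, 1.59% and 1.19% in the same order. Cells with 3 or more ATF3 UMIs numbered 46 in shAPC day 3, 1 in shScr day 3, 15 in shScr day 7 and 9 in shAPC day 7. The summed level was 45.0 CPM (42.8 to 47.3) in shAPC day 3, 1.03 CPM in shScr day 3, 15.3 CPM in shScr day 7 and 3.41 CPM in shAPC day 7. No cell type that should lack ATF3 is present in a culture of 1 line, so a background share from free RNA could not be measured, and its part in the cells with 1 UMI was not tested.

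**Figure D1:**
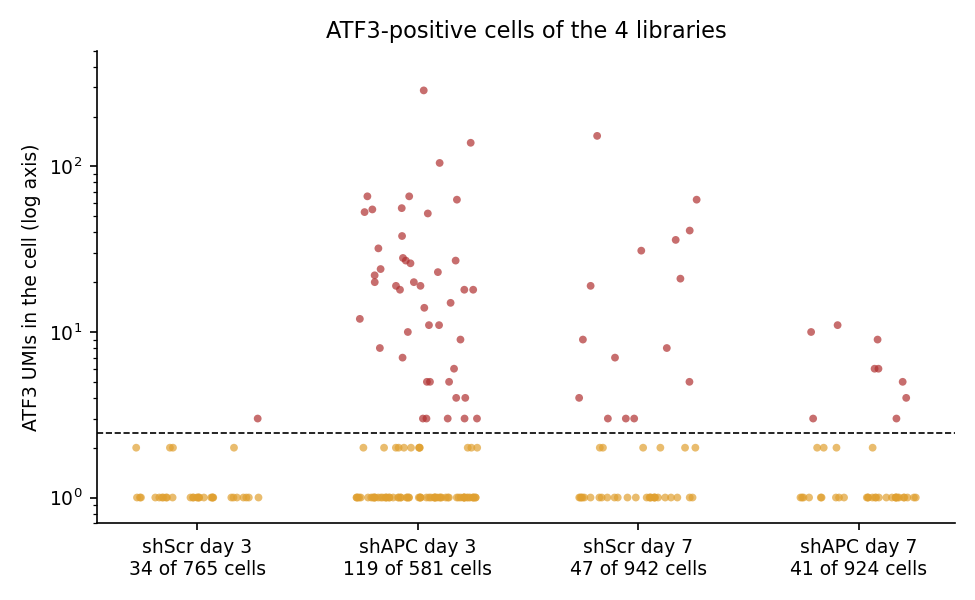
Each point is a kept cell with at least 1 ATF3 UMI, with its ATF3 UMIs on a log axis, by library; red points have 3 or more UMIs, yellow points 1 or 2, and the dashed line marks the split. The shAPC day 3 library holds 46 red points, reaching 288 UMIs, while shScr day 3 holds 1, at 3 UMIs.

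ATF3 was unevenly spread among the members. Of the 119 cells, 61 had exactly 1 ATF3 UMI, 12 had 2, 5 had 3 and 32 had 10 or more, with a maximum of 288. The 10 highest cells held 60.9% of the 1548 ATF3 UMIs of the library. ATF3 (ENSG00000162772, protein coding) spans 212565334 to 212620777 of chromosome 1 on the plus strand in hg38 (GENCODE 44).

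The classes also differed in depth and make-up. Median UMIs per cell were 55808 with 0 ATF3 UMIs, 57400 with 1 or 2 and 94631 with 3 or more, and median genes detected were 6420.5, 6689 and 8655. The median mitochondrial share of a cell's UMIs was 3.83%, 3.58% and 1.33% in that order, and ribosomal protein genes took 29.3%, 28.3% and 21.7% of the summed UMIs. Of the 29 cells in the deepest 5% of the library, 23 were members and 18 had 3 or more ATF3 UMIs. The part of depth, doublets or cell size in the results below was not tested.

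The 3 other given markers were all higher in the members, and most clearly in the cells with 3 or more ATF3 UMIs. DDIT3 (CHOP), a pro-apoptotic stress transcription factor, had 36.3 CPM (34.01 to 38.7) summed over the 462 ATF3-zero cells, 128 CPM (117 to 139) over the 73 cells with 1 or 2 ATF3 UMIs, and 1119.5 CPM over the 46 cells with 3 or more. Per cell, DDIT3 in the ATF3-zero cells ranged from 0 to 4038 CPM with a median of 16.2, and in the cells with 3 or more ATF3 UMIs from 19.8 to 4472 CPM with a median of 928. The classes overlap: the upper quartile of the ATF3-zero cells was 37.3 CPM, and 6 of the 462 ATF3-zero cells reached 404 CPM, the lower quartile of the high cells.

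GADD45A, a p53- and stress-induced protein tied to growth arrest and DNA repair, was the most abundant of the markers. Its summed level was 108 CPM with 0 ATF3 UMIs, 435 with 1 or 2, and 2756 (2706 to 2808) with 3 or more. The median cell had 71.2, 84.7 and 2583 CPM, so the median cell with 1 or 2 ATF3 UMIs was near the median ATF3-zero cell. The higher sum of the middle class came from a minority of its cells, which reached 3964 CPM.

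PPP1R15A had summed levels of 60.9, 114 and 608 CPM (584 to 632), and cell medians of 48.7, 64.7 and 529 CPM. In the 46 cells with 3 or more ATF3 UMIs it ranged from 59.4 to 2454 CPM, and in the ATF3-zero cells from 0 to 734 CPM. Over all 119 members against the ATF3-zero cells, the log2 ratio was 4.05 (3.95 to 4.16) for DDIT3, 3.84 (3.78 to 3.90) for GADD45A and 2.52 (2.43 to 2.61) for PPP1R15A.

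A count of cells shows the same split. The 95th percentile of GADD45A in the ATF3-zero cells was 246 CPM. It was exceeded by 18 of 73 cells with 1 or 2 ATF3 UMIs (24.7%) and 45 of 46 with 3 or more (97.8%). The share of ATF3-zero cells above it, 24 of 462, is set by the cut. The lower quartile of the cells with 3 or more ATF3 UMIs, 1325 CPM, was reached by 5 of 462 ATF3-zero cells (1.08%) and 8 of 73 low cells (10.96%). In cells thinned to 5000 UMIs, all 3 of DDIT3, GADD45A and PPP1R15A were detected in 13 of 461 ATF3-zero cells (2.82%), 12 of 73 with 1 or 2 (16.4%, 8.79% to 27.0%) and 34 of 46 with 3 or more (73.9%, 58.9% to 85.7%). The given name of stress cells is thus borne by the 46 high cells, whereas of the 73 low cells 28 had none of the 3 markers after thinning.

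At the thresholds of the rule, summed DDIT3 was 36.3 CPM at 0 ATF3 UMIs, 116 at 1, 175 at 2 and 527 at 3, with cell medians of 16.2, 26.3, 67.7 and 625 CPM. GADD45A had cell medians of 71.2, 84.4, 93.1 and 992 CPM, and PPP1R15A of 48.7, 64.2, 91.3 and 303 CPM. Only 12 cells had 2 ATF3 UMIs and 5 had 3.

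**Figure D2:**
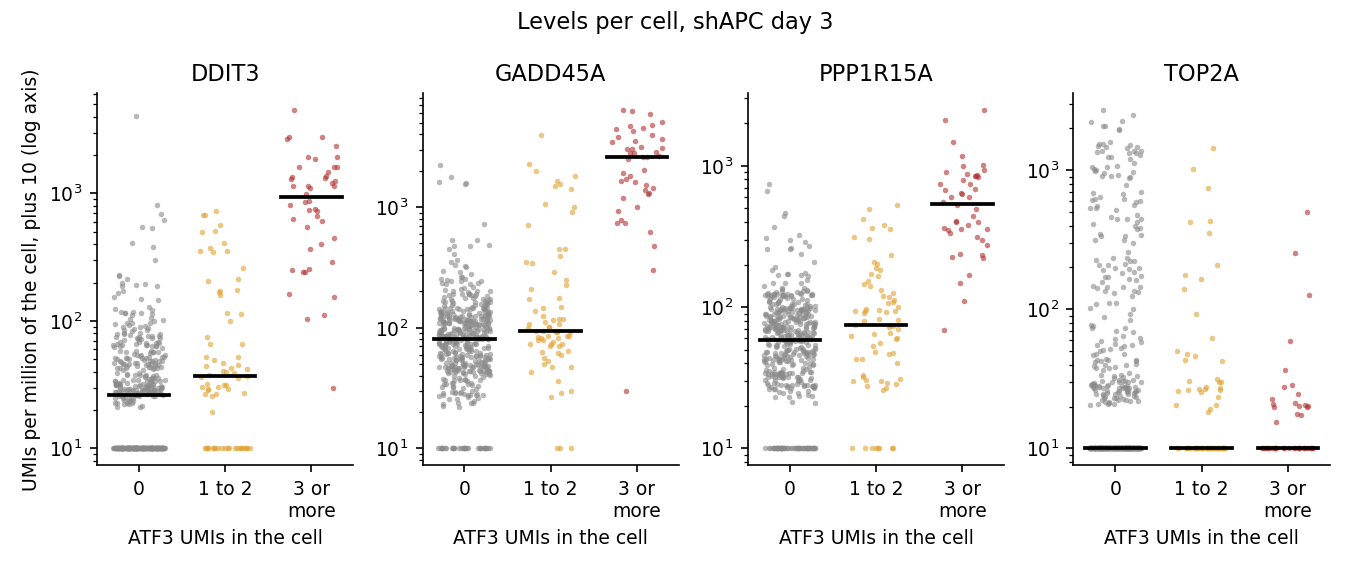
Each point is a cell of shAPC day 3, with the level of DDIT3, GADD45A, PPP1R15A or TOP2A in CPM of that cell plus 10 on a log axis, by its ATF3 UMIs; the black bar is the class median, and cells without a UMI of the gene lie at 10. The bars for DDIT3, GADD45A and PPP1R15A stand far higher in the cells with 3 or more ATF3 UMIs. Most TOP2A-high cells lie among the ATF3-zero cells, but these are also the largest class, with 462 of 581 cells.

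Across all genes, differences were mostly upward. Among 8375 genes that reached 10 CPM in either class (ATF3 left out, log2 of CPM plus 1), 994 were at least 2-fold higher in the ATF3-positive cells, which is 11.9% of those compared, and 39 were at least 2-fold lower, which is 0.466%. The median over all genes was itself 0.29 on the log2 scale. Relative to that median, 507 genes were 2-fold higher and 169 lower, so the share of higher among called genes went from 96.2% to 75.0%, and with median-of-ratios scaling 440 were higher and 230 lower (65.7% higher). Without the deepest 5% of cells 557 were higher and 12 lower. The genes were called on the contrast that chose the members, and these shares are the background against which the gene lists below are set.

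Nearly all of this came from the cells with more ATF3. Against the ATF3-zero cells, the 73 cells with 1 or 2 ATF3 UMIs had 120 of 7931 genes at least 2-fold higher (1.51%) and 9 lower (0.113%), and the 46 cells with 3 or more had 2235 of 8686 higher (25.7%) and 394 lower (4.54%). The median over all genes was 0.12 in the first of these comparisons and 0.48 in the second. A gene was called graded when it differed at least 1.5-fold in the same direction from 0 to 1 or 2 ATF3 UMIs and again from there to 3 or more. This held upward for 639 of 8778 genes (7.28%) and downward for 27 (0.308%). A further 2272 genes were 1.5-fold higher at the second step and within 1.5-fold at the first.

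**Figure D3:**
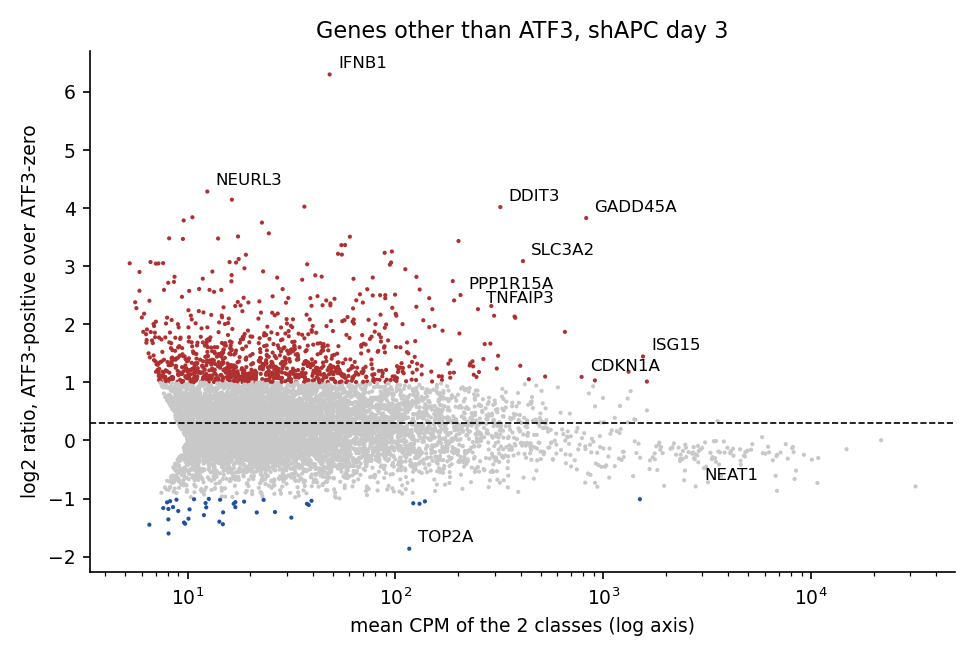
Each point is 1 of 8375 genes of the shAPC day 3 library, with its mean CPM in the 2 classes on a log axis and its log2 ratio of ATF3-positive over ATF3-zero cells (CPM plus 1); red and blue mark genes at least 2-fold higher (994) and lower (39), and the dashed line is the median of 0.29. DDIT3 and GADD45A combine a high level with a large ratio, and TOP2A is the lowest gene.

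The 12 genes with the highest ratios, ATF3 left out, were IFNB1, NEURL3, DIRC3, RRAD, DDIT3, CH25H, GADD45A, IL1A, HIST1H2AE, HSPBAP1, IL34 and HIST1H2BJ. RRAD, a small GTPase of the RAS superfamily, had 3.33, 22.7 and 120 CPM in the 3 classes in order of rising ATF3. NEURL3, an E3 ubiquitin ligase, had 0.310, 3.14 and 47.8 CPM, and was seen in 4 of 462, 6 of 73 and 25 of 46 cells. DIRC3, a long noncoding RNA, had 0.852, 7.40 and 58.3 CPM. Apart from IFNB1 and CH25H, these genes were spread over at least 20 of the 46 high cells. The histone genes HIST1H2AE and HIST1H2BJ, of which the latter had 8.91, 30.3 and 200 CPM, are members of a multigene family whose reads can be split between near-identical copies.

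The genes with the firmest grading, by the smaller of their steps, included GADD45A, DIRC3, RRAD, HSPBAP1 and IL34. IL34, a ligand of the CSF1 receptor, had 1.98, 10.99 and 56.8 CPM with 0, 1 or 2, and 3 or more ATF3 UMIs, and HSPBAP1, which binds a small heat shock protein, had 2.98, 15.0 and 80.0 CPM. These 5 were chosen partly by their level in the 73 low cells, so being higher there is no result. The median low cell held none of them but GADD45A.

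Genes of the ATF4 and CHOP response were higher as a group. Of 30 genes listed, 28 were compared, 13 were at least 2-fold higher and 0 lower, and the median log2 ratio was 0.92 against 0.29 over all genes. TRIB3, a pseudokinase that restrains ATF4 and AKT signals, had 24.8, 43.7 and 366 CPM in the 3 classes, and was found in 41 of the 46 high cells. NUPR1, a small stress-induced chromatin protein, had 141, 277 and 978 CPM, and its median cell had 84.98, 116 and 902 CPM. GDF15, a secreted stress cytokine, had 29.0, 50.03 and 300 CPM, and CTH, which makes cysteine, had 1.51, 9.20 and 22.7 CPM. EIF2S2, a subunit of eIF2 and the most abundant of the list, was higher by less, with 619, 763 and 1437 CPM. Of the 28 genes, 11 were graded upward.

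Among genes for amino acid supply, the share of transporters past 2-fold was near that of all genes. SLC3A2, the heavy chain that carries several amino acid transporters to the cell surface, was the 1 of 7 transporters compared that passed 2-fold, with a log2 ratio of 3.10 (3.03 to 3.17). It had 85.6, 258 and 1254 CPM, was detected in all 46 high cells, and ranged there from 138 to 4108 CPM with a median of 1062.5. SLC38A2 lay the other way, with 270, 243 and 143 CPM, and SLC1A5 had 71.5, 99.8 and 182 CPM. Among 12 aminoacyl-tRNA synthetases, which charge tRNAs with amino acids, CARS, YARS, MARS and GARS were at least 2-fold higher and 0 were lower (median 0.58). GARS, the most abundant, had 138, 188 and 495 CPM, while SARS and TARS had 333 and 283 CPM in the high cells and 146 and 124 CPM in the ATF3-zero cells.

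A list of endoplasmic reticulum chaperones and other genes of the unfolded protein response is called endoplasmic reticulum chaperones below. As a group it differed little. Of 20 genes of this list, 3 were at least 2-fold higher and 0 lower, and the median was 0.14, below that of all genes, and -0.21 with median-of-ratios scaling. CALR, a calcium-binding chaperone, had 556, 527 and 433 CPM. HSPA5 (BiP), the main chaperone of the compartment, had 212, 208 and 301 CPM, and its median cell had 174, 141 and 179 CPM; its log2 ratio of 0.25 became -0.10 with median-of-ratios scaling. The 3 higher genes were XBP1 (71.0, 109 and 436 CPM), ERN1 (4.11, 8.75 and 36.1 CPM) and HERPUD1 (40.0, 47.8 and 136 CPM), which are a transcription factor, a stress sensor and a part of the degradation machinery. Summed over the list, the level was 1845, 1822 and 2195 CPM, against 2349, 3188 and 8180.1 CPM for the ATF4 and CHOP list.

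AP-1 and immediate early genes, which respond within minutes to growth factor and stress signals, had 9 of 19 genes at least 2-fold higher, 0 lower and a median of 0.89. JUN had 117, 162 and 377 CPM, with cell medians of 97.3, 93.5 and 253 CPM. KLF4 had 10.2, 34.8 and 125 CPM, KLF10 36.3, 95.3 and 366 CPM, BTG2 15.2, 39.7 and 128 CPM, and MAFF 14.1, 21.8 and 133 CPM. IER3, among the most abundant of the list, differed less, with 183, 234 and 302 CPM and cell medians of 119, 97.2 and 94.2 CPM, so its higher sum came from few cells.

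All 3 GADD45 genes were at least 2-fold higher. GADD45B had 96.1, 220 and 767 CPM and GADD45G 1.39, 4.26 and 19.7 CPM. The fourth gene past 2-fold of the 8 compared in the list of GADD45 genes and CDK inhibitors (median 0.80) was CDKN1A (p21), which halts the cell cycle. It had 502 CPM with 0 ATF3 UMIs, 710 with 1 or 2 and 1466 with 3 or more, and its median cell had 373, 511 and 1086 CPM. The single highest CDKN1A cell, at 12726 CPM, was an ATF3-zero cell. CDKN2A (p16 and p14ARF) had 422, 441 and 634 CPM, a log2 ratio of 0.34 that became -0.01 with median-of-ratios scaling.

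Of 20 p53 targets, 10 were at least 2-fold higher and 0 lower (median 0.96). PLK2 had 19.6, 67.1 and 284 CPM, AEN, a nuclease, 27.0, 66.6 and 244 CPM, BBC3 (PUMA), which promotes apoptosis, 15.1, 40.6 and 137 CPM, and DDB2, which recognises damaged DNA, 21.8, 50.03 and 191 CPM. PHLDA3 and BAX, the next most abundant, had 443 and 366 CPM in the high cells and 132 and 145 CPM in the ATF3-zero cells. Among 12 cell death genes, 3 were past 2-fold and 0 lower (median 0.37). They were PMAIP1 (NOXA), with 59.1, 97.8 and 377 CPM, the inhibitor of apoptosis BIRC3, with 18.7, 41.5 and 240 CPM, and the death receptor TNFRSF10B, with 48.2, 63.5 and 154 CPM. MCL1 and BIRC2, which oppose cell death, had 311 and 246 CPM in the high cells against 163 and 153 CPM in the ATF3-zero cells.

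Promoter sequence from RefSeq (GRCh38.p14) was searched, on both strands of the 250 bases upstream of each start, for the cAMP response element TGACGTCA (CRE), the element TGATGNAAT bound by C/EBP and ATF pairs, the AP-1 site TGANTCA, and GAAANNGAA, a core of the interferon response element (ISRE). Of the 121 named genes 86 had an entry, and GADD45A and RRAD had none. The sequences below are shown because these genes are among the stress and interferon genes that were higher together, and because each holds 1 of the motifs, in capitals. In ISG15 the capitals are 3 matches to GAAANNGAA that overlap each other.

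PPP1R15A (CRE), chr19:48872171-48872420, plus strand: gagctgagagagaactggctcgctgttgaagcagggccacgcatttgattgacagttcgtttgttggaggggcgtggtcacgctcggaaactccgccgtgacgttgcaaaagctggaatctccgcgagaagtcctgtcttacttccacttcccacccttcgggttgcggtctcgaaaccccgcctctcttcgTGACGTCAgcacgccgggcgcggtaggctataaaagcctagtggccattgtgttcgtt
MAFF (CRE), chr22:38201744-38201993, plus strand: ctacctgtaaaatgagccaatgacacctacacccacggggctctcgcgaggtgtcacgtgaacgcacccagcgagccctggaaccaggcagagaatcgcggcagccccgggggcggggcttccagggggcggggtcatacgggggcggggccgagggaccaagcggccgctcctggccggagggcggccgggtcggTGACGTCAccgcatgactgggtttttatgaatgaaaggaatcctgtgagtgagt
DDIT3 (AP-1), chr12:57520515-57520764, minus strand: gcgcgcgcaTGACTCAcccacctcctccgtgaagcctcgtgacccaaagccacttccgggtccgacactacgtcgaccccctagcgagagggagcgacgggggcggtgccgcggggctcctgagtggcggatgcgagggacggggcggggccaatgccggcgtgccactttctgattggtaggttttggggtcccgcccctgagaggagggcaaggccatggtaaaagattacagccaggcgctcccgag
ISG15 (ISRE core), chr1:1013247-1013496, plus strand: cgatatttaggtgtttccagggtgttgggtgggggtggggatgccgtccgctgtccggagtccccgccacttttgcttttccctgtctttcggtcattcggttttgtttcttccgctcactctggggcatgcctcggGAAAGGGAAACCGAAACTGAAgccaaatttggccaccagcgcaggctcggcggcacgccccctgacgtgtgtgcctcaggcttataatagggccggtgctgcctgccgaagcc

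The CRE begins 58 bases upstream of the start in PPP1R15A and 54 in the MAFF entry shown. The AP-1 match begins 241 bases upstream in the DDIT3 entry shown and 238 in another entry of that gene. Another entry of MAFF held none of the motifs. Named genes that were lower held them as well, such as FN1 with the CRE and MKI67 with GAAANNGAA. No entry of TRIB3, GDF15 or IRF1, which were higher, held any. Of 35116 promoter entries, 1.65% held the CRE, 0.888% TGATGNAAT, 6.57% the AP-1 site and 6.88% GAAANNGAA. The shares that follow are of genes, each counted when any of its entries held the motif, so they are not on the same footing as the shares of entries. Of the 994 genes at least 2-fold higher in the ATF3-positive cells 773 had an entry, and 4.92% of these held the CRE, 0.776% TGATGNAAT, 9.31% the AP-1 site and 8.93% GAAANNGAA. Over all 6712 compared genes with an entry, the shares were 3.89%, 0.626%, 5.87% and 7.52%. The shares are descriptions of letters in these windows only.

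Interferon β, the first type I interferon made on virus sensing, was almost wholly confined to 3 cells. IFNB1 (ENSG00000171855, chromosome 9 at 21077104 to 21077942, minus strand, hg38) had 829 UMIs in 16 of the 581 cells, and 814 of them (98.2%) lay in 3 cells with 585, 176 and 53 UMIs. These 3 cells held 66, 52 and 139 ATF3 UMIs, so all were among the 46 high cells. Of the other 13 cells 12 had a single IFNB1 UMI, and 6 of the 16 were ATF3-zero. The place of IFNB1 as the highest gene, with 0.232 CPM in the ATF3-zero cells and 200 CPM in the high cells, therefore rests on those 3 cells, and without them it fell under the 10 CPM limit.

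The genes that encode chemokines linked to interferon were uneven as well. CXCL10, which attracts T cells, had 10.0, 10.99 and 197 CPM in the 3 classes, and 1 cell held 50.8% of its UMIs in the members. That cell was the one with 585 IFNB1 UMIs, and it had 436 CXCL10 UMIs. CCL5 had 31.4, 36.1 and 229 CPM and was detected in 18 of 46 high cells, and CXCL11 had 3.21, 10.5 and 49.7 CPM, in 12 of 46. Of 12 ligands and chemokines listed 5 were compared and 4 were at least 2-fold higher, against 11.9% of all genes. IFNB1 and CXCL11 reached the limit of 10 CPM only in the ATF3-positive cells. Their place in this count was therefore partly set by the limit. CH25H, an interferon-induced enzyme of cholesterol metabolism, was seen in 7 of 46 high cells, 1 of which held 40.3% of its UMIs in the members. Without the 3 cells with most IFNB1, the log2 ratio of CXCL10 was 2.15 in place of 3.20 (CPM plus 1).

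Interferon-stimulated genes were higher over more cells. Of 38 genes compared, 12 were at least 2-fold higher and 0 lower, with a median of 0.67. The median was 0.09 for the cells with 1 or 2 ATF3 UMIs and 1.10 for those with 3 or more, each over the ATF3-zero cells. ISG15, a ubiquitin-like modifier, had 834, 968 and 3693 CPM, and its median cell had 505, 552 and 2819 CPM, so the shift was in the bulk of the 46 high cells. IRF1, a transcription factor induced by interferon and NF-kB, had 17.4, 58.6 and 301 CPM and was detected in 42 of 46. OASL, an antiviral effector, had 24.6, 45.5 and 251 CPM, and HERC5, the ligase for ISG15, 5.00, 8.30 and 51.2 CPM. ISG20, a nuclease, had 6.39, 3.14 and 75.6 CPM, and 1 cell held 49.7% of its UMIs in the members. The abundant IFITM3 and IFI27 differed less, with 1250.3, 1363 and 1868 CPM and 750, 789 and 1739.5 CPM. Without the 3 cells with most IFNB1 the median of the list was 0.49.

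NF-kB targets and cytokines formed the list with the highest median among those of more than 5 genes compared. Of 23 genes, 17 were at least 2-fold higher and 0 lower, and the median was 1.82. TNFAIP3 (A20), which ends NF-kB signalling, had 85.4, 177 and 670 CPM and was detected in all 46 high cells, where it ranged from 15.4 to 2306 CPM with a median of 289. NFKBIE, an inhibitor of NF-kB, had 9.30, 27.1 and 190 CPM, and TRAF1, a receptor adaptor, 2.32, 6.51 and 42.9 CPM. Of the cytokines, IL6 had 2.94, 15.0 and 57.0 CPM in 39 of 462, 12 of 73 and 29 of 46 cells, and IL1A 0.426, 2.47 and 36.3 CPM. CXCL8 and CXCL1, neutrophil chemokines, had higher sums in the high cells (652 and 614 CPM against 183 and 281 CPM), but the median cell had 63.7 and 23.2 CPM there and 21.2 and 51.9 CPM among the ATF3-zero cells.

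Of the 39 genes at least 2-fold lower, 10 were in the G2M list and 1 in the S phase list. The 8 lowest were TOP2A, PRR11, FAM83D, CEP55, LMNB1, CDCA8, IQCG and MYBL2. TOP2A, the topoisomerase that untangles chromosomes, had 183 CPM with 0 ATF3 UMIs, 77.4 with 1 or 2 and 19.5 with 3 or more, a log2 ratio over all members of -1.88 (-2.03 to -1.74). It was detected in 224 of 462 ATF3-zero cells, 34 of 73 low and 19 of 46 high cells. No high cell exceeded 495 CPM while ATF3-zero cells reached 2684, though a highest value also depends on the number of cells in the class. CEP55, which acts in abscission, had 22.0, 10.3 and 4.39 CPM, CDCA8, of the chromosomal passenger complex, 14.4, 6.95 and 2.44 CPM, and MYBL2, a transcription factor of cycling cells, 12.05, 5.38 and 2.68 CPM. IQCG had 21.0, 5.83 and 9.02 CPM, but its ATF3-zero level held 1 cell at 2986 CPM.

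Of 42 G2M genes compared, 10 were at least 2-fold lower and 0 higher, with a median of -0.70, while 0.466% of all genes were lower. UBE2C, a ubiquitin-conjugating enzyme of mitotic exit, had 45.5, 24.5 and 10.0 CPM, and MKI67, the proliferation marker, 37.3, 20.2 and 10.0 CPM. The abundant TUBB4B had 283, 253 and 144 CPM, whereas JPT1 and RANGAP1 of the same list had 264 and 106 CPM in the high cells and 181 and 78.7 CPM in the ATF3-zero cells, ratios that changed sign with median-of-ratios scaling. Per cell the difference lay above the median. In cells thinned to 5000 UMIs the median G2M level was 800, 800 and 1000 CPM in the 3 classes, and the upper quartile 2000, 1800 and 1200 CPM. The highest cell had 13800, 8200 and 5400 CPM, but a highest value also depends on the number of cells, here 461, 73 and 46. Of 23 S phase genes 1 was at least 2-fold lower, UHRF1 (11.6, 7.85 and 0.975 CPM), and 0 were higher, with a median of -0.31. PCNA and TYMS had 21.7 and 23.4 CPM in the high cells and 54.6 and 57.4 CPM in the ATF3-zero cells, and MRPL36 lay the other way with 229 against 100 CPM. PCNA and the list median changed sign, to 0.15 and 0.22, when classes were taken from thinned ATF3 counts.

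Other groups differed little or in single genes. Heat shock proteins had 1 of 12 genes past 2-fold, HSPB8 (5.58, 13.9 and 38.5 CPM), and a median of 0.06 that became -0.35 with median-of-ratios scaling; HSPB1, HSP90AB1 and HSP90AA1 had 886, 539 and 286 CPM in the high cells against 774, 569 and 421 CPM. Of 12 NRF2 targets, 3 were past 2-fold (median 0.36): OSGIN1, with 5.04, 12.1 and 53.9 CPM, HMOX1, with 61.7, 83.9 and 176 CPM, and SQSTM1 (p62), the autophagy receptor, with 809, 1096 and 2646 CPM. FTH1 and FTL, the ferritin chains, had 21710.1 and 15597 CPM in the ATF3-zero cells and 21093 and 11982 CPM in the high cells. Of 9 genes of ERK and p38 feedback 1 was past 2-fold, PHLDA1 (145, 229 and 554 CPM), the median was -0.07, and it changed sign under 9 of the alternatives, while SPRED1 and DUSP5 had 56.6 and 36.6 CPM in the high cells against 25.5 and 40.6 CPM.

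Of the Wnt targets, 4 of 19 were compared and 1, BAMBI, was past 2-fold (2.60, 6.95 and 53.4 CPM), with a median of 0.00. CCND1, CD44 and DKK1 had 261, 507 and 37.8 CPM in the high cells and 469, 361 and 103 CPM in the ATF3-zero cells. APC was too low to be compared, with 6.04, 4.04 and 4.14 CPM in the 3 classes and a log2 ratio of -0.56 (-1.14 to -0.03). AXIN2, a direct Wnt target, had 1.86, 0.673 and 1.46 CPM, and its interval included 0 (-2.04 to 0.22).

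**Figure D4:**
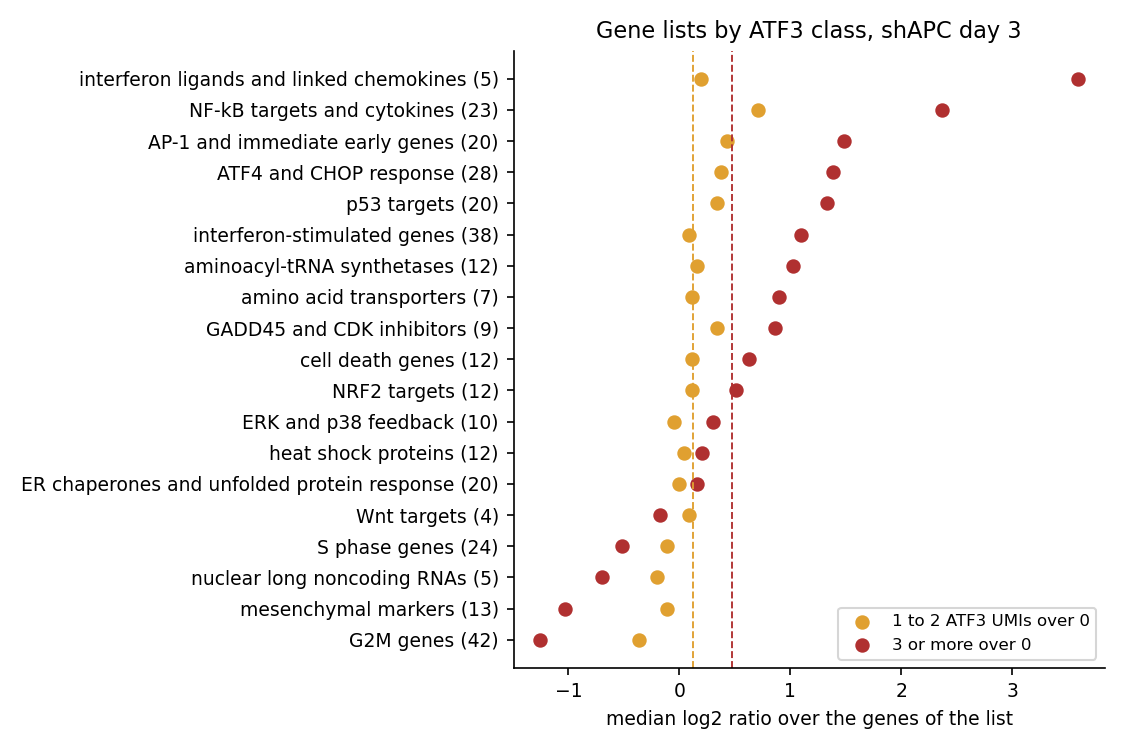
For each gene list, with the number of genes compared in brackets, the median log2 ratio over the ATF3-zero cells (CPM plus 1) is shown for the cells with 1 or 2 ATF3 UMIs in yellow and for those with 3 or more in red; dashed lines are the medians over all genes, 0.12 and 0.48. Only lists with at least 4 genes are drawn, the NF-kB list stands at 2.37 in red, and the G2M list at -1.25.

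Markers of other cell types were low or absent in all classes. Of 12 immune markers, 7 had 0 UMIs in the kept cells of the library (PTPRC, CD3D, CD3E, CD2, MS4A1, HLA-DRA and NKG7), and the summed level was 27.3, 28.9 and 56.1 CPM, nearly all of it CD68 (26.2, 26.9 and 55.1 CPM). Of 8 endothelial markers PECAM1, CDH5 and EMCN had 0 UMIs, the sum was 10.96, 15.9 and 10.5 CPM, and ESAM alone was compared (10.4, 15.5 and 10.2 CPM). The defining epithelial markers CDH1, KRT20, CLDN3, CDX2 and MUC2 also had 0 UMIs, and the 12 epithelial markers summed to 44.8, 37.5 and 88.5 CPM, with KRT8 at 17.6, 18.4 and 31.2 CPM, KRT18 at 4.03, 7.18 and 26.1 CPM and CLDN7 at 17.7, 7.18 and 22.4 CPM. Of the 3 epithelial markers compared, KRT18 was at least 2-fold higher in the members.

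Mesenchymal markers were abundant and lower in the high cells, with sums of 12985, 11853 and 7942 CPM. The median over 13 genes was -0.48 for all members and -1.03 for the high cells, each over the ATF3-zero cells. VIM had 5179.5, 4977 and 3595.5 CPM, FN1 3555, 3000.4 and 2074.5 CPM and COL1A1 1684, 1479 and 687 CPM, while ACTA2 (53.8, 72.0 and 185 CPM) and LUM (30.9, 60.1 and 90.2 CPM) were at least 2-fold higher. CDK4, an immortalising gene of the line, had 85.4, 98.5 and 176 CPM, which the counts do not divide between transgene and endogenous gene. The nuclear long noncoding RNAs MALAT1 and NEAT1 had 11965 and 3531 CPM in the ATF3-zero cells and 7361 and 919 CPM in the high cells, and SNHG12, a host gene of small nucleolar RNAs, had 33.2, 122 and 638 CPM. Of the 5 such RNAs compared SNHG12 was the 1 past 2-fold, and the median was -0.49.

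Among the members, the programmes did not all scale with ATF3. Spearman's rho across the 119 cells between ATF3 CPM and list levels in thinned cells was 0.56 for the ATF4 and CHOP list, 0.54 for interferon-stimulated genes, 0.29 for NF-kB targets, 0.28 for AP-1 genes, 0.20 for endoplasmic reticulum chaperones, 0.06 for G2M genes, 0.01 for heat shock proteins and -0.53 for mitochondrial genes. Within the 46 high cells the same values were 0.39, 0.25, 0.04, -0.17, 0.48, 0.09, -0.06 and -0.43. The ATF4 and CHOP list had a rho of -0.70 with the mitochondrial genes across the 119 cells and -0.32 across the 46. The cells share 1 library and each value is a share of the same 5000 UMIs, so that these are descriptions.

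The 46 high cells differed among themselves in each list. In thinned cells the ATF4 and CHOP list ranged from 2200 to 18600 CPM with a median of 8000, against a median of 2400 in the low cells and 2200 in the ATF3-zero cells. The NF-kB list ranged from 0 to 24600 CPM with a median of 2400 (600 in the low and 600 in the ATF3-zero cells), where 1 UMI is worth 200 CPM. Interferon-stimulated genes ranged from 3600 to 56000 CPM with a median of 11100, against 5400 in both other classes. For each list the ATF3-zero cells overlapped the high cells, reaching 13200 CPM for the ATF4 and CHOP list and 18600 CPM for the NF-kB list.

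The ATF3-positive cells of the other 3 libraries were examined as a check. Within shScr day 7, 726 of 7616 genes were at least 2-fold higher in ATF3-positive cells (9.53%) and 120 lower (1.58%), and within shAPC day 7, 589 of 7708 were higher (7.64%) and 16 lower (0.208%). In shScr day 3, where 33 of the 34 positive cells had 1 or 2 ATF3 UMIs, 27 of 6991 were higher (0.386%) and 11 lower (0.157%). Of the 994 genes higher in shAPC day 3, 484 of the 815 compared in shScr day 7 were also at least 2-fold higher there (59.4%, and 66.7% of the 726), 378 of 762 in shAPC day 7 (49.6%, and 64.2% of the 589) and 18 of 526 in shScr day 3 (3.42%, and 66.7% of the 27). These contrasts are each within 1 library and share no cells. Depth differed between the classes at day 7 as well. Cells with 3 or more ATF3 UMIs had median UMIs of 53869 in shScr day 7 and 36400 in shAPC day 7. The ATF3-zero cells had 28634 and 28156. Median mitochondrial shares were 2.38% and 1.84% in the former and 3.79% and 4.17% in the latter. The part of depth in the repeat was not tested.

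The stress markers were higher in ATF3-positive cells of each day 7 library. In the order shScr day 3, shScr day 7 and shAPC day 7, the log2 ratio (CPM plus 1) was 1.23, 4.52 and 3.18 for DDIT3, 1.32, 3.82 and 3.79 for GADD45A and 0.08, 2.81 and 2.44 for PPP1R15A. SLC3A2 had 0.56, 3.28 and 2.74, IRF1 0.20, 3.94 and 3.39, and TNFAIP3 0.10, 2.10 and 2.60. ISG15 had 0.66, 0.97 and 1.28. The median of the interferon-stimulated list was 0.52, 0.36 and 0.83 in the same order, against -0.02, 0.19 and 0.31 over all genes. Its shift was thus seen in shScr day 3 as well. Among the 12 genes at least 2-fold higher in all 4 libraries were DDIT3, GADD45A, SNHG12, HIST1H4H, TRIB3, E2F7, MAFF, PMAIP1, LINC01588, FBXO32 and RCAN1, of which HIST1H4H, E2F7, LINC01588, FBXO32 and RCAN1 are named here after their values were seen. IFNB1 and NEURL3 were under 10 CPM in both classes of each other library.

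The genes that were lower in shAPC day 3 were not lower in every library. Of the 39 genes lower in shAPC day 3, 21 of 30 were also at least 2-fold lower in shScr day 7, 1 of 30 in shAPC day 7 and 1 of 32 in shScr day 3. TOP2A had log2 ratios of 0.44 in shScr day 3, -1.60 in shScr day 7 and 0.24 in shAPC day 7, and the median of the G2M list was 0.13, -1.19 and 0.22. UBE2C had 0.46, -2.28 and -0.35 and CEP55 -0.10, -2.61 and -0.16 in the same order. The median of the S phase list was 0.19, -0.82 and 0.63 in that order. In shAPC day 7, 6 of the 24 S phase genes compared were at least 2-fold higher, against 7.64% of all genes. The positive cells of shAPC day 7 numbered 41, of which 9 had 3 or more ATF3 UMIs. The differences between libraries were not tested.

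**Figure D5:**
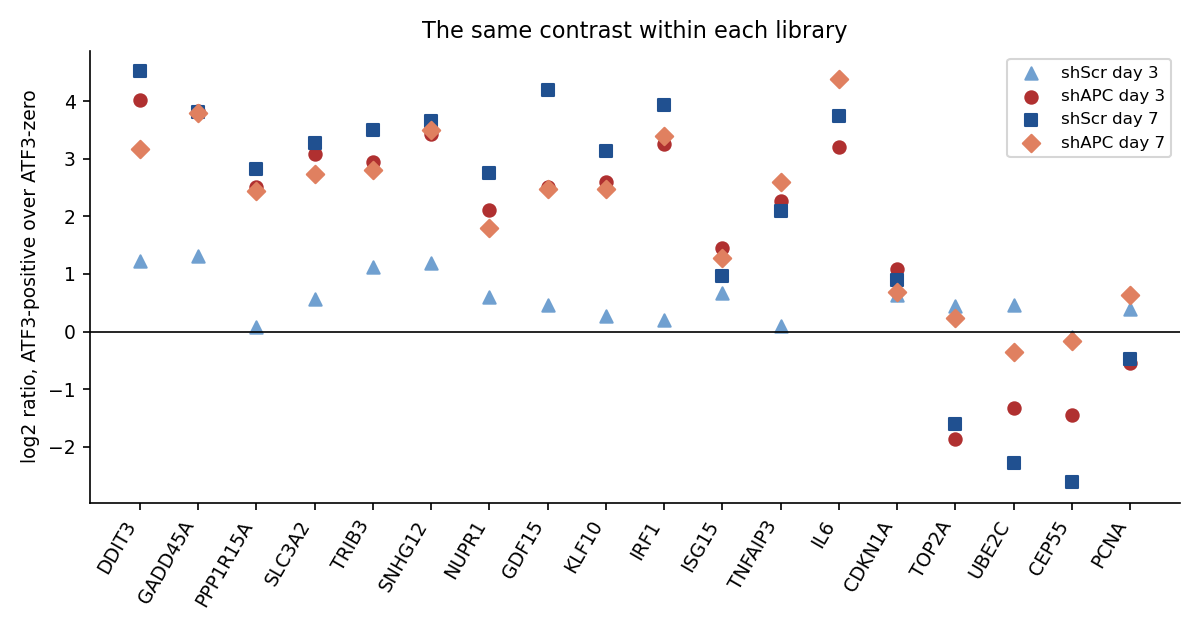
For 18 named genes, the log2 ratio of ATF3-positive over ATF3-zero cells (CPM plus 1) is shown within each library; a point is drawn where the gene had at least 10 CPM in 1 of the classes. The stress, NF-kB and interferon genes lie above 0 in shAPC day 3 and both day 7 libraries. Those drawn for shScr day 3 also lie above 0, from 0.08 for PPP1R15A to 1.32 for GADD45A. TOP2A lies at -1.86 in shAPC day 3, 0.44 in shScr day 3, -1.60 in shScr day 7 and 0.24 in shAPC day 7.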

How the data were processed

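Single-cell RNA from 4 HCEC 1CT libraries was measured with the 10x Genomics 3′ assay, whose kit is v2 in the labels and V3 in the study's methods. The virus is retroviral in the labels and lentiviral in the methods. The authors aligned reads to GRCh38 and deposited raw UMI counts per gene and barcode, which were used as deposited. Per the file headers, Cell Ranger 3.0.2 wrote both shScr matrices and 3.0.0 both shAPC matrices, so version and shRNA cannot be told apart. The study's later scaling, batch correction and imputation were not applied.

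UMIs were summed per class and scaled to CPM, the counts per 1000000 UMIs of the class. Ratios of single genes given with an interval have no pseudocount and an exact conditional binomial (Clopper-Pearson) 95% interval. Calls, medians and rankings used log2 of CPM plus 1 for genes that reached 10 CPM in either class. Each group held 1 library, so no test was run. Named genes were the 4 given markers, IFNB1, APC and AXIN2, the 12 highest and 8 lowest ratios, the 6 genes with the largest smaller step, and from each list the 3 most abundant and up to 4 with the largest change past 2-fold. One gene that these rules name is not reported here. The members, lists and rules were chosen with earlier results of these data known. Scrublet in scanpy 1.11.5 (expected rate 5%) marked 0 of 581 shAPC day 3 cells as doublets, so the doublet call was treated as failed, none were removed, and leaving out the 44 cells with the highest scores (the highest 5%, with ties) was an alternative. S and G2M lists came with Seurat 5.3.0. Of the 33538 genes listed, 24 symbols belong to more than 1 gene ID. The scripts used Python 3.11.15, numpy 2.4.6 and scipy 1.17.1, and were tested on simulated data.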

Additional observations from a re-analysis of the deposited data

Results flagged for a closer look

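Barcodes left out of all comparisons also held ATF3. Of the 466 left-out barcodes of shAPC day 3, 22 had an ATF3 UMI (4.72%, 2.98% to 7.06%), against 8 of 706 in shScr day 3 (1.13%, 0.490% to 2.22%), with median depths of 2489.5 and 1631.5 UMIs. Of the 22, 11 were over the mitochondrial limit.

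Of 108 named genes compared in shAPC day 3 and at least 1 other library, 35 had a ratio of ATF3-positive over ATF3-zero cells of the opposite sign in at least 1 other library. For 5 of these the log2 ratio was at least 0.5 in size in both libraries, and none of the differences was tested. Log2 ratios are given for shAPC day 3 and then for the other library. CXCL1 was at 0.82 and -0.84 in shScr day 3, CD68 at 0.61 and -0.54 in shScr day 3, and LMNB1 at -1.43 and 0.67 in shScr day 3. The replication genes PCNA and UHRF1 were at -0.55 and -1.18, and at 0.63 and 0.87 in shAPC day 7. In shScr day 3 only 1 of the 34 positive cells had 3 ATF3 UMIs.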

How the results depend on the processing

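No paired analysis was possible because the labels carry no replicate numbers and each group held 1 library. The counts of genes at least 2-fold higher (994) and lower (39) in ATF3-positive cells moved by over 1.5 times under many settings. With cells thinned to 5000 UMIs 170 were lower, and with classes also taken from the thinned ATF3 counts 2420 were higher and 838 lower. Weighting the comparison cells by UMI decile left 13 lower. The mean over cells of CPM gave 656 and 15, median-of-ratios scaling 440 and 230, and subtracting the median of all genes 507 and 169. Totals without mitochondrial and ribosomal protein genes gave 95 lower. A pseudocount of 10 CPM gave 395 and 5, genes of at least 50 CPM 342 and 8, and no minimum level 1538 and 80. A mitochondrial limit of 10% gave 25 lower, leaving out the deepest 5% of cells 557 and 12, leaving out cells with an IFNB1 UMI 25 lower, and members of at least 2 ATF3 UMIs 1957 and 291. Genes graded downward (27) became 87 with thinning and 17 when CPM were averaged over cells, and those graded upward stayed within 1.5 times of 639 in all 3 alternatives.

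List medians moved beyond the counting error of their genes as follows. The ATF4 and CHOP list (0.92) was 1.53 with classes from thinned counts, 0.73 with decile weights, 0.59 with median-of-ratios scaling, 1.18 for genes of at least 50 CPM and 1.27 with at least 2 ATF3 UMIs. AP-1 genes (0.89) were at 1.34, 0.49, 1.03 and 1.37 under thinned classes, median-of-ratios scaling, 50 CPM and 2 UMIs. Interferon-stimulated genes (0.67) were at 1.25, 0.46, 0.32 and 1.02 under thinned classes, decile weights, median-of-ratios scaling and 2 UMIs, and at 0.49 both without IFNB1-positive cells and, chosen after seeing the data, without the 3 cells with most IFNB1. GADD45 genes and CDK inhibitors (0.80) were at 1.04 with thinning, 0.45 with the mean over cells, 0.46 with median-of-ratios scaling, 0.41 without mitochondrial and ribosomal totals, 1.70 at 50 CPM, 0.50 with no minimum and 1.09 without the 3 cells. NF-kB targets (1.82) were at 1.55 with the mean over cells, 1.48 with median-of-ratios scaling, 1.46 with a pseudocount of 10, 1.61 with no minimum and 2.16 with 2 UMIs. G2M genes (-0.70) were at -0.38 with decile weights, -1.04 with median-of-ratios scaling, -0.29 at 50 CPM and -1.03 with 2 UMIs, and endoplasmic reticulum chaperones (0.14) at -0.21 with median-of-ratios scaling. Under every alternative the first 5 of these lists kept a median above 0 and the G2M list one below 0. The cause was not tested, other than the fewer genes or cells that a setting leaves.

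The share of cells with an ATF3 UMI depended on depth. Thinned to 5000 UMIs it was 0.523% in shScr day 3, 6.38% in shAPC day 3, 1.59% in shScr day 7 and 1.19% in shAPC day 7, and thinned to 2000 UMIs 0.131%, 5.16%, 0.531% and 0.216%. With at least 200 genes and 500 UMIs it was 16.5% in shAPC day 3, 2.77% in shScr day 7 and 2.98% in shAPC day 7. Among the named genes, no ratio past 2-fold changed sign under the settings in which the gene could be compared. Other genes were not followed through the settings. One library per group leaves the variation between cultures unknown, and with 46 high cells a few cells carry much of the sum of a rare gene.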
